A study of Arabidopsis thaliana with 3 samples.

Results

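The RADIALIS-like (RL) genes of Arabidopsis thaliana are a small family of MYB-related genes, here the 6 loci RL1 (AT4G39250), RL2 (AT2G21650), RL3 (AT4G36570), RL4 (AT2G18328), RL5 (AT1G19510) and RL6 (AT1G75250). They are all 6 loci of this name among the 25383 with a matched probe, and each had 1 probe with 1 spot on every array. Probe sequences were not used here, so whether a probe also reads a close relative was not tested. The family was selected on its Cy5 over Cy3 ratios on these same arrays as well as its name, so the members' ratios, levels and calls are a description and no p-value is given for them.

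Whole seedlings were compared on 3 two-colour arrays. On 2 arrays, replicates 1 and 2, the mutant fe-1 was set against WT, the L.er accession, both untreated and taken on day 7 at zeitgeber time 15 h. On the other array, seedlings of 35S::FE-GR line #5 submerged for 2 h in 1 µM dexamethasone (Dex) were set against those of that line given the Mock treatment, on day 7 at zeitgeber time 14 h. All grew in long days at 22 °C on medium with 1% sucrose. FE (AT1G79430, also APL) codes for a phloem transcription factor of the Myb type, and FE-GR joins it to the steroid-binding part of the glucocorticoid receptor, which holds a fusion protein outside the nucleus until Dex is given. The 35S promoter is active in most cell types, so FE-GR was not limited to the phloem, and 1 line was used. No Dex-treated seedlings without FE-GR were analysed here, so an effect of Dex itself and one of FE-GR cannot be told apart. In whole seedlings, fewer cells of a type and less RNA per cell cannot be told apart either. By the labels the 2 fe-1 arrays are biological replicates, with no word on separate cultures, and the spread below is that between these 2 arrays only.

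RADIALIS was first known from snapdragon, where this short protein with a single MYB domain helps set the dorsal identity of the flower. It does so by competing with DIVARICATA, a related MYB factor, for partner proteins that DIVARICATA needs to bind DNA. The Arabidopsis relatives share the single MYB domain. RL2 is also called RSM1 and MEE3, and RL1, RL6 and RL5 are also RSM2, RSM3 and RSM4. In Arabidopsis, RSM1 has been tied to early seedling growth, hook and hypocotyl responses, and abscisic acid (ABA) signalling together with the light regulator HY5.

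Well-above-background spots made up 72.1% to 74.8% of the Cy5 and 75.1% to 78.1% of the Cy3 gene spots, 0 spots were saturated, and the number of arrays limits the precision. Both fe-1 arrays lay on 1 slide and the Dex array on another, so slide and comparison cannot be told apart. Levels below are the log2 brightness of a probe after background correction and loess, which puts both dyes of an array on 1 scale. A level compares groups on the same probe and not 1 probe with another, and levels were not scaled between the fe-1 arrays and the Dex array. Ratios, fe-1 over WT and Dex over Mock, are log2 values, with ± for the SD of 2 arrays. FE itself read -0.17 ± 0.031 in fe-1, with its other probes at 0.06 and 0.00. The lesion is not described in the labels, so the FE level checks no label.

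In fe-1, the RL genes that could be read were all lower than in WT. RL2, RL3, RL4, RL5 and RL6 were below WT on both arrays, with WT 3.19-fold higher for RL4, 2.00-fold for RL3 and 1.37-fold for RL6, and at least 1.70-fold for RL5 and at least 1.12-fold for RL2, which were dim in fe-1. A fold given as "at least" takes, for the dim group, whichever is greater of its own level and the dimmest level called well above background on that array, and dye bias was not removed from it, since dyes were not swapped. In fe-1 such a bound is on the mean of the 2 arrays and not on each. By replicate 1 alone WT was 1.64-fold higher for RL5, and by replicate 2 alone 1.11-fold for RL2. Such bounds hold for the processing used here only. With the spots of non-uniform background kept, RL5 read -0.44 and RL2 -0.08 in fe-1, and with median centring RL1 read 2.19 with Dex. RL1 was not well above background in either group and has no ratio. Over all 20680 loci tested, 39.5% were below WT on both arrays.

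RL4 had the lowest ratio in fe-1 of the 3 members that were above background throughout, RL3, RL4 and RL6. Its level was 8.77 and 8.60 in fe-1, against 10.3 and 10.4 in WT, well above background in all 4 channels. The groups were far apart and each pair of replicates was close. Its ratios were -1.55 and -1.79, a mean of -1.67 ± 0.17, which ranked 13 from the lowest of the 20680 loci.

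RL3 was also lower, with a wide spread between the arrays. Its level was 7.59 and 7.03 in fe-1, against 8.17 and 8.46 in WT. The groups did not overlap, but replicate 2 showed a much larger gap than replicate 1. The ratios were -0.58 and -1.43, a mean of -1.00 ± 0.60, and so its size is poorly set by 2 arrays: it was 2.00-fold higher in WT on the mean, 1.49-fold by replicate 1 alone and 2.69-fold by replicate 2 alone.

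RL5 and RL6, the pair on chromosome 1, were also lower. RL5 had a level of 5.99 and 6.02 in fe-1, against 6.70 and 6.87 in WT. In fe-1 it was at background on either array, while WT was well above it. Its ratio of -0.78 ± 0.093 was thus read at the limit of detection, and WT was at least 1.70-fold higher on the mean. RL6 had a level of 6.75 and 6.80 in fe-1, against 7.18 and 7.28 in WT, above background throughout. Its ratio of -0.45 ± 0.035 had the smallest spread of the family.

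RL2 was dim on both fe-1 arrays. Its level was 5.94 and 6.16 in fe-1, against 6.22 and 6.31 in WT, and only WT was well above background. The groups did not overlap, yet replicate 2 of fe-1 lay close to replicate 1 of WT. The ratio was -0.21 ± 0.091, with WT at least 1.12-fold higher on the mean. RL1 had a spot brightness minus local background of -12.5 scanner units in fe-1 and -8.5 in WT on replicate 1, where that background was marked as non-uniform and the spot was left out of the fit. On replicate 2 it had 9.5 units in fe-1 and 7.5 in WT, and neither channel was well above background.

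**Figure D1:**
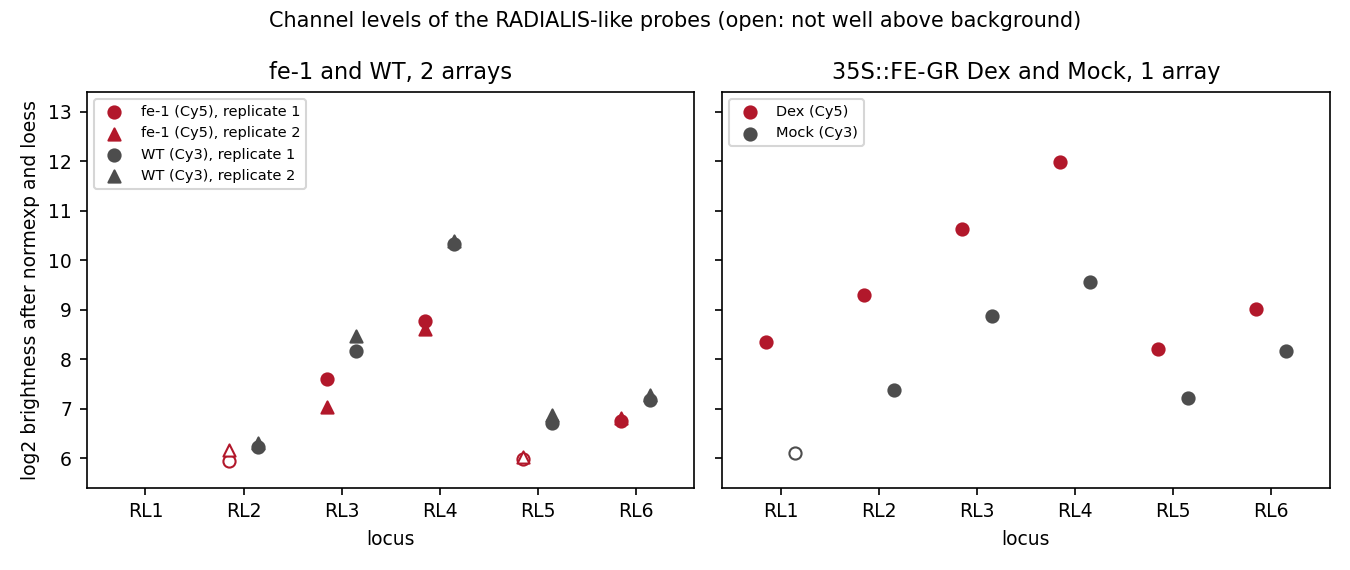
Log2 brightness of each RADIALIS-like probe after normexp and loess, with fe-1 left of WT on 2 arrays (left panel) and Dex left of Mock on 1 array (right panel). Open symbols are not well above background; RL1 has no point on the fe-1 arrays, and for RL4 fe-1 reads 8.77 and 8.60 against 10.3 and 10.4 in WT.

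Ordered by the mean ratio, the members above background throughout ran RL4, RL3 and RL6, and the array values of neighbours in this order did not overlap after normexp. On the scanner's processed signals those of RL4 (-1.76 and -1.93) lay within those of RL3 (-0.93 and -1.95). The fe-1 channels of RL5 and RL2 were dim on both arrays, which leaves their ratios bounded by the floor and without a place in the order. The limma fit, at an adjusted p under 0.05, called all 5 loci lower in fe-1 and 0 higher, where 11.4% of all loci were called lower and 8.9% higher. Since the list was chosen with these ratios known, nothing is read from that count. The 5 had a median ratio of -0.78, or -0.76 with RL2 and RL5 at their bounds, beside -0.01 over all loci, and 2 of them (RL4 and RL3) were at least 2-fold lower, as were 0.382% of all loci. The calls rest on the processing: with the scanner's processed signals RL4 and RL6 were called, and RL2, RL3 and RL5 were not. With the spots of non-uniform background kept, or in the series value table, 0 of the 5 were called, although all 5 stayed below WT there.

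After 2 h of Dex, all 6 RL genes were brighter than with Mock, as were 50.7% of all loci. RL4 was 5.36-fold, RL2 3.81-fold, RL3 3.38-fold, RL5 1.99-fold and RL6 1.80-fold higher with Dex, and RL1, dim with Mock, at least 4.71-fold. With 1 array these values have no error and no test. Of the 6, 4 passed 2-fold, and 3.58% of all 20494 loci read on that array did so in the same direction, while 0 of the 6 and 2.95% of all loci were lower by as much. The family's median ratio was 1.84, beside 0.00 over all loci, and the list was chosen with this array known.

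RL4 had a level of 12.0 with Dex, against 9.56 with Mock, a ratio of 2.42. RL1, at background on the fe-1 arrays, had a level of 8.34 with Dex, against 6.11 with Mock. Only the Dex channel was well above background, so its ratio of 2.24 is a lower bound and it was at least 4.71-fold higher with Dex. RL2, known as RSM1, had a level of 9.31 with Dex, against 7.38 with Mock, a ratio of 1.93. RL3 had a level of 10.6 with Dex, against 8.88 with Mock, a ratio of 1.76. These 4 were among the highest 1.40% of loci on the array.

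RL5 and RL6 were less changed. RL5 had a level of 8.21 with Dex, against 7.22 with Mock, a ratio of 0.99 that lies just inside 2-fold. RL6 had a level of 9.01 with Dex, against 8.16 with Mock, a ratio of 0.85. Both were well above background in both channels. They ranked 740 and 914 from the highest of the 20494 loci, so that 3.61% and 4.46% of loci had ratios as high or higher.

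The size of several of these ratios differed with the handling of the background. With the scanner's processed signals, which have no offset, RL1 read 6.64 and RL2 2.61 with Dex, and RL5 read 1.59. On the same signals the fe-1 ratios of the dim probes were -3.40 ± 0.92 for RL5 and -1.84 ± 0.62 for RL2. The probes of RL4, RL6 and RL3 moved less than those of RL5 and RL2. RL4 read 2.56 with Dex and -1.85 ± 0.12 in fe-1, and RL6 read 0.98 and -0.65 ± 0.018. RL3 read 1.93 and -1.44 ± 0.73, the latter against -1.00 ± 0.60 after normexp. In fe-1 RL3 thus moved more than RL6, although its probe was brighter. With RL5 and RL2 included, the order in fe-1 therefore differs between the ways of processing. RL5 was lowest on the processed signals and RL4 after normexp, but RL5 and RL2 were at the limit of detection. The means of RL4, RL3 and RL6 kept their order in both, although the array values of RL4 and RL3 overlapped on the processed signals. The direction was the same in both for every member read.

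**Figure D2:**
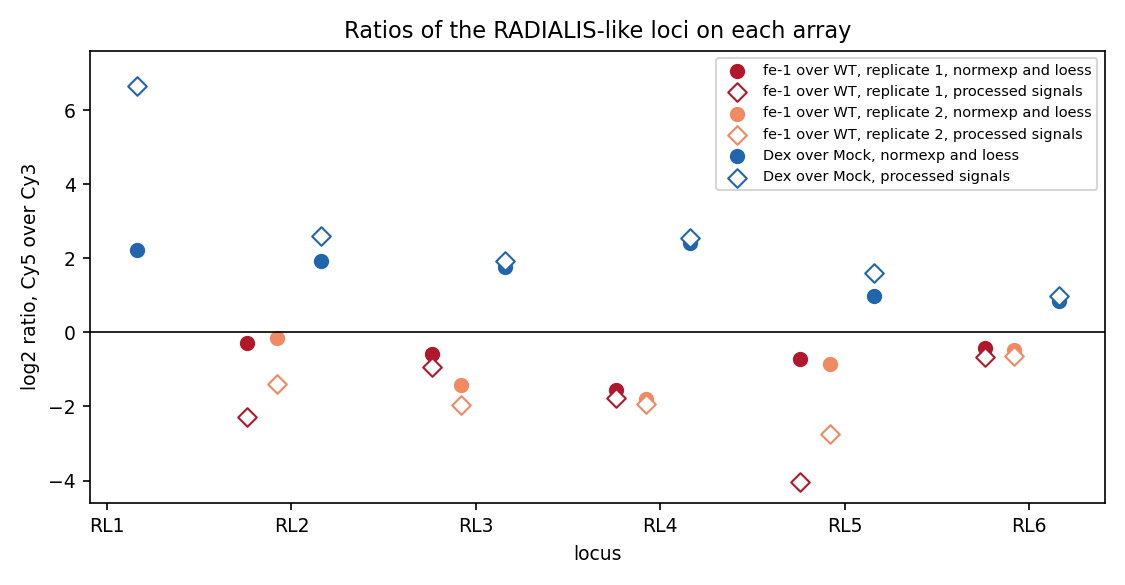
Log2 ratio of Cy5 over Cy3 for each RADIALIS-like locus on each array, with normexp and loess (filled circles) and from the scanner's processed signals (open diamonds). The fe-1 arrays lie below 0 for RL2 to RL6 and the Dex array lies above 0 for all 6 loci, and the 2 ways of processing part most for RL1 with Dex and RL5 in fe-1.

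Set side by side, the members read in both comparisons were lower in fe-1 and higher with Dex. RL4 read -1.67 in fe-1 and 2.42 with Dex, RL3 -1.00 and 1.76, RL5 -0.78 and 0.99, RL6 -0.45 and 0.85, and RL2 -0.21 and 1.93. The fe-1 levels of RL2 and RL5 were at the limit of detection, so the sizes of their fe-1 ratios are not set against those of the others. All 5 were below WT on both arrays and above Mock, as were 17.8% of the 19979 loci read in both. RL2, RL3 and RL4 were called lower in fe-1 and also at least 2-fold higher with Dex, as were 155 loci or 0.776% of all. On the processed signals RL2 and RL3 were not called in fe-1. The list was chosen with the ratios of these arrays known, so nothing is read from these joint counts. The 2 comparisons share no sample. The RNA of fe-1 and of Dex was in the same dye, Cy5, and dyes were not swapped, so dye bias in these ratios was not tested.

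**Figure D3:**
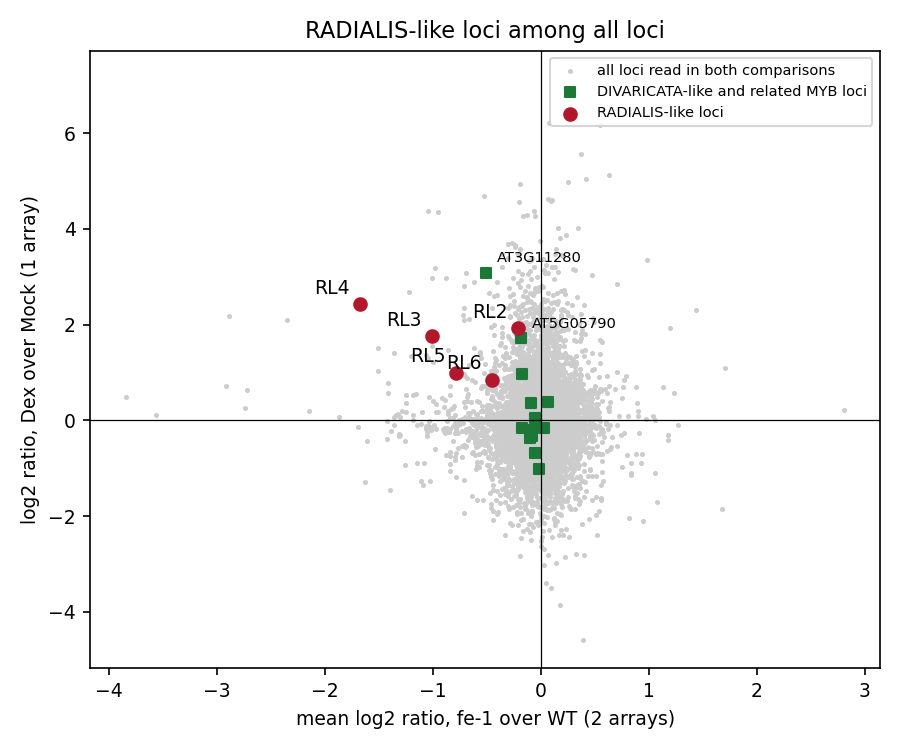
Mean log2 ratio of fe-1 over WT (2 arrays, horizontal) against log2 ratio of Dex over Mock (1 array, vertical) for all loci read in both comparisons (grey), with 5 RADIALIS-like loci (red circles) and the DIVARICATA-like and related MYB loci (green squares). The red points all lie left of 0 and above 0, with RL4 at -1.67 and 2.42, and AT3G11280 lies at -0.50 and 3.08.

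The loci nearest to each member over the 3 array ratios were found by Euclidean distance on the log2 scale. No RL gene was among the 3 nearest of another. RL6 lay closest to J8 (AT1G80920, distance 0.042), AT5G46870 (0.076) and AT4G01140 (0.10). RL2 lay closest to DMR6 (AT5G24530, distance 0.059), AT2G18240 (0.081) and CLV1 (AT1G75820, distance 0.10). RL5 was nearest to CYP71A27 (AT4G20240, distance 0.13), AT3G52460 (0.18) and AT2G45750 (0.21). RL3 and RL4 had larger distances. The nearest to RL3 were AT1G73630 (0.60), AT3G21460 (0.63) and AT2G30540 (0.67), and the nearest to RL4 were AT4G26010 (0.74), AT1G24575 (0.94) and AT2G32550 (1.07). With 3 arrays, a small distance says only that the ratios were alike on them, and those of RL2 and RL5 rest on fe-1 ratios at the limit of detection.

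The family is spread over 3 chromosomes, with RL5 and RL6 on chromosome 1, RL2 and RL4 on chromosome 2, and RL1 and RL3 on chromosome 4. RL6 lies on the same chromosome as FE with 429 protein-coding genes between them in the gene order, and RL5 with 5011. Whether differences linked to fe-1 touch RL6 was not tested. Around the 6 members, the 3 protein-coding neighbours on each side make 36 loci. In fe-1, 31 of these were tested and 2 fell, 4 rose and 25 did not pass by limma, where 20.3% of all loci passed in either direction. The neighbours' ratios ran between -0.22 and 0.41 in fe-1, and RL3, RL4, RL5 and RL6 each lay below all of them, RL5 at the limit of detection. The members were chosen with their ratios known and the neighbours by position, so nothing is read from that gap. RL2, at the limit of detection, read -0.21 beside its neighbour AT2G21640, which fell by 0.22 ± 0.017 (limma adjusted p = 0.0181). GRP7 (AT2G21660), an RNA-binding protein gene that follows the clock, lies on the other side of RL2 and rose by 0.41 ± 0.025 (limma adjusted p = 0.00166).

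With Dex, 2 of the 30 neighbours read passed 2-fold upwards and 0 downwards, as did 3.58% and 2.95% of all loci. These were CCR1 (AT4G39260), next to RL1 and also called GRP8, with a ratio of 1.44, and AT4G36590, the second gene from RL3, with 1.65. In fe-1 CCR1 read 0.03 ± 0.14, and AT4G36590 rose by 0.37 ± 0.16 (limma adjusted p = 0.00795), opposite in sign to RL3. Around RL4, the highest neighbour with Dex was HBI1 (AT2G18300), a bHLH factor gene of growth, at 0.78. Around RL5 and RL6 the highest neighbour read 0.19.

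**Figure D4:**
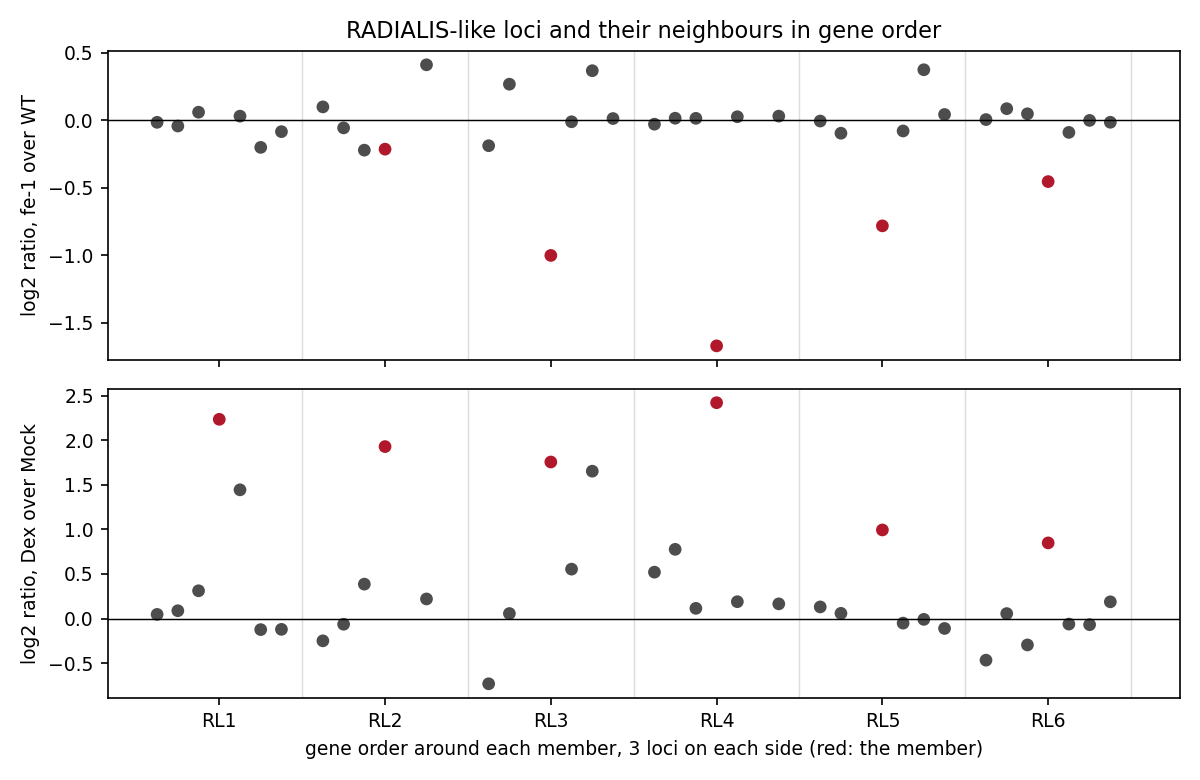
Log2 ratios of each RADIALIS-like locus (red) and of its 3 protein-coding neighbours on each side in gene order (grey), for fe-1 over WT (upper panel, mean of 2 arrays) and Dex over Mock (lower panel, 1 array). Loci without a kept probe have no point. In fe-1, RL3 to RL6 lie below all neighbours, which run between -0.22 and 0.41, but the members were chosen with their ratios known.

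DIVARICATA-like proteins are the factors that RADIALIS works against in snapdragon, and 16 Arabidopsis loci of this kind and of related MYB types were examined as a list. In fe-1, 14 were tested, of which 0 rose, 4 fell and 10 did not pass, where 11.4% of all loci fell and 8.9% rose, with a median ratio of -0.08 beside -0.01 over all loci. AT3G11280, which encodes a MYB-like protein, had the largest decrease of the list. Its level was 10.3 and 10.6 in fe-1, against 10.9 and 11.1 in WT, and its ratio fell by 0.50 ± 0.078 (limma adjusted p = 0.000963), with the same sign on each array. AT5G05790 fell by 0.18 ± 0.080 (limma adjusted p = 0.0455), AT2G38090 by 0.17 ± 0.048 (limma adjusted p = 0.0447) and AT1G70000 by 0.17 ± 0.029 (limma adjusted p = 0.0428). These last 3 were small and near the threshold, and they were called under 1, 2 and 1 of the 7 alternatives to the processing, against 4 for AT3G11280.

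With Dex, 15 of these loci were read, with 2 past 2-fold upwards and 1 downwards, where 6.52% of all loci were past 2-fold in either direction. AT3G11280 had a level of 15.5 with Dex, against 12.4 with Mock, a ratio of 3.08, above the ratios of the RL genes after the same processing, of which RL1's is a lower bound. AT5G05790 read 1.72 with Dex, close to RL3, and AT2G38090 read 0.96, close to RL5. AT5G04760 was the 1 locus at least 2-fold lower, at -1.01, and it read -0.02 ± 0.070 in fe-1. The list's median with Dex was -0.07, and 7 of the 15 loci were above Mock.

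Genes tied to RSM1 in seedlings, for light, ABA and the apical hook, were examined as another list. Of 8 loci, 7 were tested in fe-1, and 0 rose, 3 fell and 4 did not pass, where 11.4% of all loci fell and 8.9% rose. The median ratio was -0.17 beside -0.01 over all loci. HY5 (AT5G11260), a bZIP factor of light signalling, fell by 0.25 ± 0.074 (limma adjusted p = 0.0148). The late embryo genes EM1 and EM6, targets of ABA signalling, fell by 0.28 ± 0.10 (limma adjusted p = 0.0123) and 0.34 ± 0.18 (limma adjusted p = 0.0123). EM1 was at background in fe-1 and at least 1.19-fold higher in WT on the mean. The 4 that did not pass were ABI5 (0.13), HLS1 (0.06), ABI3 (0.02) and HYH (-0.17). With Dex, 0 of the 7 loci read were past 2-fold, and their ratios ran between -0.21 and 0.05, all below those of the RL genes.

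Markers of the tissues in a whole seedling were read beside the RL genes. Photosynthetic shoot, root hair, phloem and seed markers were detected on the fe-1 arrays, but the seed marker SESA4 was well above background in WT only. Over all loci, 11.4% fell and 8.9% rose in fe-1 by limma, which the counts below are read beside. In fe-1, all 5 root hair and root markers fell, with a median of -1.05, and their summed normalized brightness was 1669 to 1814 in fe-1, against 3161 to 3220 in WT. Of the 5 seed markers, 4 fell, with a median of -0.85 and a summed normalized brightness of 555 to 1306 in fe-1, against 2150 to 3201 in WT. These were CRU3 (-2.40 ± 0.98, other probe -0.71), CRA1 (-1.93 ± 0.74, other probes -1.51 and -1.34), OLEO1 (-0.85 ± 0.35, other probe -0.69) and OLEO2 (-0.70 ± 0.083, other probe -0.84). SESA4 (-0.07), at background in fe-1, did not pass. Of the 5 phloem markers, 3 fell, with a median of -0.17. They were SEOA (-0.48), NAKR1 (-0.28, other probes -0.12 and -0.11) and FE (-0.17, other probes given above). The mutant is named for FE, so FE is no independent marker in it. SUC2 (-0.06) and SEOB (-0.13) did not pass. Of the 6 photosynthetic markers 3 rose, with a median of 0.16. They were RBCS1A (0.56, other probes 0.04 to 0.56), LHCB1.3 (0.45, other probes -0.04 to 0.48) and CAB3 (0.20, other probes 0.03 and -0.01). With the mean of probes, LHCB1.3 and CAB3 were not called. The RL genes were lower in the same samples as the root and seed markers, and the part of these tissues in the RL ratios was not tested. With Dex, 0 of the 5 root markers and 0 of the 6 photosynthetic markers passed 2-fold, where 6.52% of all loci did in either direction, and 0 of the 5 seed markers were well above background. Of the phloem markers, SUC2, the companion cell sucrose transporter gene, read 3.20 (other probes 2.65 and 2.63) and NAKR1, a phloem metal-binding protein gene, 2.60 (other probes 1.74 and 1.55), while SEOA read 0.17, SEOB -0.14 and FE -0.26. Both channels of this array came from the FE-GR line, so FE's own RNA and that of the transgene cannot be told apart. The FE probe read 16501 units over background with Dex and 10094.5 with Mock, against 780 to 969 on the fe-1 arrays. FE is therefore not read as a phloem marker with Dex.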

How the data were processed

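RNA of whole Arabidopsis seedlings was measured on 3 two-colour Agilent arrays, with fe-1 or Dex RNA in Cy5 and WT or Mock RNA in Cy3 on each, and no dye swap. Spot intensity values per channel were deposited as scanner files, whose software was Agilent Feature Extraction, version 10.7.3.1, per the file headers. Their processed signals were background-subtracted and dye-normalized by the scanner software per the file headers, and a log10 ratio of Cy5 over Cy3 is deposited per spot. The authors' series value table gives log2 ratios, within 0.005 of those log10 ratios once put on a log2 scale.

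Used here were median spot and local background intensities, corrected with normexp (offset 50) and normalized by loess within each array (limma 3.58.1, R 4.3.3). Control and outlier spots had weight 0. On fe-1 replicate 1, 32 gene spots with a flagged non-uniform local background were left out. Accessions matched RefSeq loci (TAIR10.1) for 34285 of 43603 probes, and the table served for names and gene order only, since the array annotation names an older build. Probes well above background in at least 2 of 4 channels (fe-1) or 1 of 2 (Dex) were kept, and each locus was read from its brightest kept probe. For fe-1, limma tested the log2 ratio against 0 over 20680 loci with Benjamini-Hochberg adjustment, with 1 residual and 6.54 prior degrees of freedom and a threshold of 0.05. A single Dex array allows no test. Channel levels of the fe-1 arrays were also scaled by Aquantile. Nearest loci were the 3 with the smallest Euclidean distance over the 3 ratios. From the 2 related MYB and seedling lists, loci past the test or the 2-fold limit are named, up to 4 a direction. For the seedling list, the tested loci that did not pass in fe-1 are named too. Neighbours and markers named were chosen after their values were seen. The design also named promoter motifs, which were not analysed here. The members and lists were chosen with earlier results of these data known. Alternatives to the processing, 7 in number, are given in the closing section.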

Additional observations from a re-analysis of the deposited data

How the results depend on the processing

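The sign of every RL ratio was kept in all 87 values recomputed under 7 alternatives to the processing and with either fe-1 array left out. The sizes were not, and many of the signs could not differ. Each member had 1 probe, so the mean of probes and the dropped filter returned the reported ratio. The Dex array had 0 flagged gene spots, and the value table repeats the scanner's ratios. With both fe-1 arrays below WT, leaving either out could not change a sign. In fe-1 the family's median of -0.78 became -0.44 with the spots of non-uniform background kept and -1.84 with either the processed signals or the deposited value table, and ran between -0.85 and -0.58 with 1 replicate left out, which leaves a value with no test. Counts of RL loci called, 5 as reported, were 0 with those spots kept, 2 with the processed signals and 0 in the value table, and 4 with median centring. RL3 depended most on the array, at -1.43 without replicate 1 and -0.58 without replicate 2. On the Dex array the family's median of 1.84 became 2.07 with median centring, 1.97 with no background subtraction, 2.24 with the processed signals and 2.245 in the deposited value table. Median centring also moved the median of all loci on that array to 0.22, and with it all 6 RL loci passed 2-fold, against 4 as reported. The number was 5 with no background subtraction, the processed signals or the value table, since RL5 read 1.12, 1.59 and 1.59 there.

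Over all loci, 4189 calls in fe-1 (1841 higher, 2348 lower, 43.9% higher) became 59 with the flagged spots kept (10 higher, 49 lower) and 550 with the processed signals (139 higher, 411 lower). The series value table gave 0 by limma, with 6035 at an unadjusted p under 0.05. The 4 DIVARICATA-like and related calls became 2 with the mean of probes, 1 with median centring, 1 without the filter, and 0 with the flagged spots kept, the processed signals or the value table. The 3 light, ABA and hook calls became 0 under these last 3. With the flagged spots kept, the normexp background mean on fe-1 replicate 1 moved from -10.8 to -1128 in Cy5. In Cy3 it moved from -3.81 to -317, and on replicate 2 it did not move. The cause of the lower counts was not tested. With 1 array, the Dex comparison has no replicate and allows no test. The fe-1 test is itself paired, each ratio setting fe-1 against the WT on the same array. RL1 on the fe-1 arrays, and RL2 and RL5 in fe-1, lie at the limit of signal over background.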
